A study of Homo sapiens with 12 samples.

Results

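Transcripts of 10 genes of the epidermal growth factor receptor (EGFR) loop were followed through knockdown of the fatty acid elongases ELOVL2 and ELOVL5: the ligand genes TGFA, HBEGF, AREG, EREG and BTC, the receptor genes EGFR, ERBB2 and ERBB3, the sheddase gene ADAM17 and the receptor inhibitor gene ERRFI1. They were chosen by symbol, and all 10 were found among the 57773 genes of the table and among the 18648 genes that were tested. RNA had been sequenced from A498, a human kidney carcinoma cell line, in 12 libraries. The 4 groups were cells given a control siRNA, an siRNA against ELOVL2 (siELOVL2), an siRNA against ELOVL5 (siELOVL5), or siRNAs against both genes (double knockdown), with 3 biological replicates each. All groups were transfected cultures of 1 cell line, and no untransfected cells are among them. How much siRNA the cells received and when they were harvested is not given in the sources used here.

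Ligands of this family are made as membrane-anchored precursors. A metalloprotease, chiefly ADAM17 for several of them, cuts them free, and the released ligand binds EGFR, which pairs with itself or with another ERBB receptor and signals through the RAS-ERK and PI3K-AKT relays. ERBB2 binds no known ligand and serves as a partner, ERBB3 has little kinase activity of its own, and ERRFI1, also called MIG6, binds the active EGFR kinase and inhibits it. Clear cell kidney carcinoma usually lacks the VHL protein, which leaves hypoxia-inducible factors stable, and TGFA, a known target of the factor encoded by EPAS1, is known as an autocrine growth factor of such cells.

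The promoters of TGFA, EGFR and AREG are shown because the first 2 belong to the most abundant transcripts of the set and the last to a scarce ligand. Each sequence runs from 250 bases before to 50 bases after the transcription start, from the first RefSeq entry of the gene on GRCh38.p14, at chr2:70553777-70554076 (minus strand, TGFA), chr7:55018767-55019066 (plus strand, EGFR) and chr4:74444886-74445185 (plus strand, AREG). Capitals mark 2 words, searched on both strands: the GC box GGGCGG, which reads CCGCCC on the other strand, and the TATA box TATAAA.
TGFA: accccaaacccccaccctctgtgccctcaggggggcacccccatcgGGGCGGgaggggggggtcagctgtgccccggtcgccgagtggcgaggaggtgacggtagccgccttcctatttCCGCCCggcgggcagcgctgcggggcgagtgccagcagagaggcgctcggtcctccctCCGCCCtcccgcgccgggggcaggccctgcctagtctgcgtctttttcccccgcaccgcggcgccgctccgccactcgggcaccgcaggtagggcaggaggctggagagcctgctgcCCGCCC
EGFR: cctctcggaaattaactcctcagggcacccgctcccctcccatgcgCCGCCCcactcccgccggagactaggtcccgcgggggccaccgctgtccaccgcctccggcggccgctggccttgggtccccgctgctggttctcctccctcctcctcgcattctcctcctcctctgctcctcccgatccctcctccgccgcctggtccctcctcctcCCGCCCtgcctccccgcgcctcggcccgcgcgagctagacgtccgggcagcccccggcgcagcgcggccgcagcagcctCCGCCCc
AREG: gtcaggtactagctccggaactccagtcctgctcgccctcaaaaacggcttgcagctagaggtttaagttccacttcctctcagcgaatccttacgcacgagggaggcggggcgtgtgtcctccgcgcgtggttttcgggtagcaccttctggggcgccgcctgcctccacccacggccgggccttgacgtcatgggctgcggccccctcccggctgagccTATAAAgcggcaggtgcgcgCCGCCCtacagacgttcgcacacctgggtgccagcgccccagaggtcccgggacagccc
In these first entries, the TGFA promoter holds 4 GC boxes and that of EGFR 3, both without TATAAA. The AREG promoter holds 1 GC box and 1 TATAAA, whose first base is at -29 from the start. TGFA and EGFR each have a second RefSeq entry, which differs. That of TGFA holds 0 GC boxes and 0 TATAAA, and that of EGFR holds 0 GC boxes and 2 TATAAA. Which start these cells use was not tested. Among 35116 RefSeq promoters of this length, 45% hold GGGCGG and 11.5% hold TATAAA, so GC boxes are common and the TATA word is not. These matches describe the letters only.

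Values are quantile-normalized counts, in which every library was given the same set of values with a total of 8.525 M. Estimated depths were 6.70 to 10.7 M reads a library. ELOVL2 stood at 211 to 299 normalized counts in the control libraries and at 18.4 to 30.1 in the siELOVL2 and double-knockdown libraries. ELOVL5 stood at 1939 to 2038 in control and at 141 to 187 in the siELOVL5 and double-knockdown libraries, so both targets were low where the labels say so. Of 16 kidney tubule and carcinoma markers, 15 reached 10 normalized counts in at least 1 of the 12 libraries (EPCAM peaked at 7.5). Of other cells' markers, 1 of 6 leukocyte genes did (CD68, 285 to 451, with CD3E listed at 0 throughout), 0 of 4 endothelial genes, and 4 of 7 fibroblast and pericyte genes (COL1A1 at 250 to 436, with LUM listed at 0 throughout). In bulk libraries, fewer expressing cells and less RNA per cell cannot be told apart.

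One library stood apart for these genes before any comparison is made. In siELOVL5 replicate 3, HBEGF was 4.84 times the mean of the other siELOVL5 libraries, AREG 4.07 times, EGFR 2.16 times, ERRFI1 2.06 times and ADAM17 1.17 times, and each of the 5 was the highest of all 12 there. TGFA ranked 3 of 12 in that library, ERBB2 6 and EREG 11. The hypoxia-responsive genes NDRG1 (2.80 times) and VEGFA (2.11 times) and the factor gene EPAS1 (2.24 times) were also at their highest of 12 there, as were 6 of the 14 hypoxia-inducible factor axis genes in all. Others of that axis did not follow: EGLN3 was 1.12 times the other siELOVL5 libraries and CA9 1.09 times, and PGK1 was at its lowest of 12. How many of all tested genes peaked in that library was not counted, so the peaks are not shown to be particular to these genes. Without it, tested genes at a limma adjusted p under 0.05 went from 825 to 1775 for double knockdown against control. Printed differences that move by over 1.5 times without this library are given with and without it.

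Per length, the control cells carried most TGFA. In the control group TGFA stood at 882 ± 91.7 normalized counts per kb of merged exon (SD, n = 3), with EGFR at 511 ± 35.0 and ERRFI1 at 474 ± 30.2. ADAM17 followed at 218 ± 12.8 per kb and ERBB2 at 68.5 ± 3.03. The other ligands were far lower, with AREG at 31.2 ± 18.6, HBEGF at 21.3 ± 14.3, BTC at 11.1 ± 2.82 and EREG at 0.752 ± 0.336 per kb, and ERBB3 stood at 0.987 ± 0.455. The control libraries overlapped between the neighbours EGFR and ERRFI1, AREG and HBEGF, HBEGF and BTC, and ERBB3 and EREG, while the other neighbours in this order did not overlap. In the double knockdown the top of the order closed up, with TGFA at 396 ± 54.2, EGFR at 415 ± 65.7 and ERRFI1 at 355 ± 98.8 per kb, and their libraries overlapped.

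**Figure D1:**
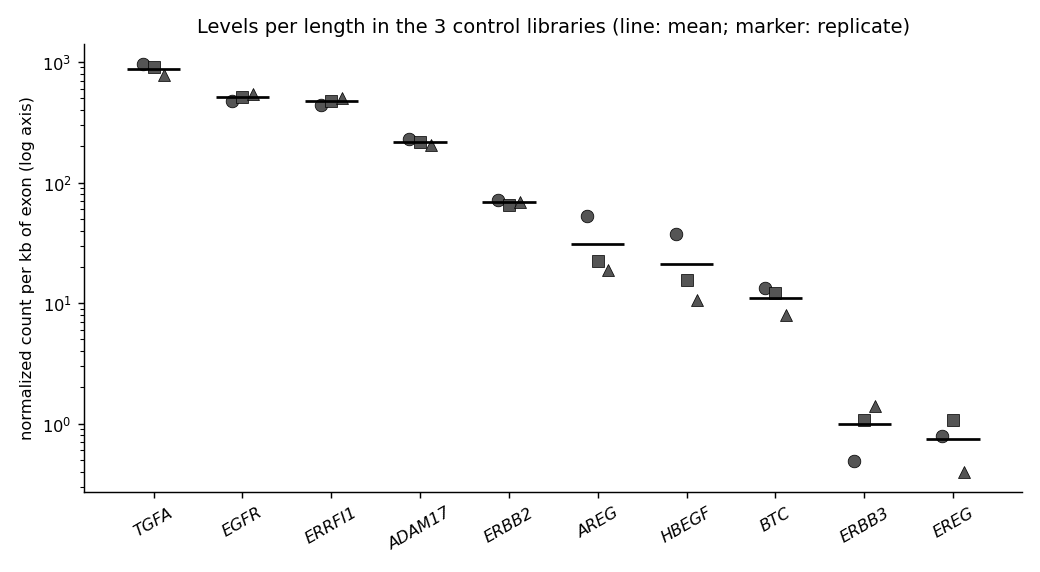
Normalized count per kb of merged exon (log axis) of the 10 genes in the 3 control libraries, with markers for replicates 1 to 3 and a line for the mean. TGFA, with a mean of 882, lies above all the others, and EREG and ERBB3 lie near 1.

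TGFA encodes transforming growth factor alpha, a soluble EGFR ligand once shed. TGFA stood at 4583, 4375 and 3739 normalized counts in control replicates 1 to 3, at 2616, 2891 and 2316 with siELOVL2, at 3064, 3092 and 4207 with siELOVL5, and at 1884, 1647 and 2167 in the double knockdown. All siELOVL2 and double-knockdown libraries lay below all controls, and all double-knockdown libraries lay below every other library. The siELOVL5 libraries overlapped the controls through replicate 3 alone. As group means, TGFA was at 61.6% of control with siELOVL2, 81.6% with siELOVL5 and 44.9% in the double knockdown.

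Differences are given on the log2(value + 1) scale, and a gene is called where its Benjamini-Hochberg adjusted p from limma, over all tested genes, is under 0.05. With siELOVL2, TGFA fell by 0.70 (SE 0.14, limma adjusted p = 0.0282), and it was the 1 member of 10 called, beside 0.547% of all tested genes called higher and 0.815% called lower. That call was lost without control replicate 1 (adjusted p = 0.134) or 2 (0.131) or siELOVL2 replicate 1 (0.0887), 2 (0.0632) or 3 (0.126) in limma, with differences between -0.79 and -0.62 over the 12 fits that left out 1 library. In the double knockdown TGFA fell by 1.16 (95% interval of the difference -1.46 to -0.86, limma adjusted p = 5.72e-04), again the 1 member called, beside 2.15% of tested genes called higher and 2.27% lower. This call held without any 1 of the 12 libraries, with limma adjusted p between 9.07e-05 and 0.00593. With siELOVL5 the difference was -0.30 (interval -0.60 to -0.0032, limma adjusted p = 0.517) and 0 of 10 members were called, beside 0.0161% of tested genes called higher and 0.123% lower. At an unadjusted p under 0.05, 2 of the members (TGFA and ADAM17) and 1783 of all tested genes passed in that comparison. Without siELOVL5 replicate 3 the TGFA difference was -0.45 (limma adjusted p = 0.277). These 3 comparisons share their control libraries.

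The knockdowns were then set against each other. TGFA was 0.86 lower in the double knockdown than with siELOVL5 (limma adjusted p = 0.00699), the 1 member called there, beside 1.36% of tested genes called higher and 1.41% lower. Against siELOVL2 the double knockdown differed by -0.46 (interval -0.76 to -0.16) without overlap, which did not pass adjustment (limma adjusted p = 1), and 0 members were called where 0% of tested genes were called higher and 0.059% lower. There, 2 members (TGFA and ERBB2) and 672 of all tested genes passed an unadjusted p of 0.05. TGFA was 0.40 higher with siELOVL5 than with siELOVL2 (interval 0.09 to 0.70, limma adjusted p = 0.156; 0.25 and 0.337 without siELOVL5 replicate 3), and 0 members were called beside 1.46% of tested genes called higher and 1.56% lower. In that comparison 4 members (TGFA, HBEGF, ADAM17 and ERRFI1) and 3201 of all tested genes passed the unadjusted threshold. The interaction is the double-knockdown difference from control less the sum of the differences of both single knockdowns, and for TGFA it stood at -0.16 (interval -0.58 to 0.27, limma adjusted p = 0.996), and at -0.0064 without siELOVL5 replicate 3. No gene was called for it, 0% higher and 0% lower, while 1 member (ADAM17) and 522 of all tested genes had an unadjusted p under 0.05.

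**Figure D2:**
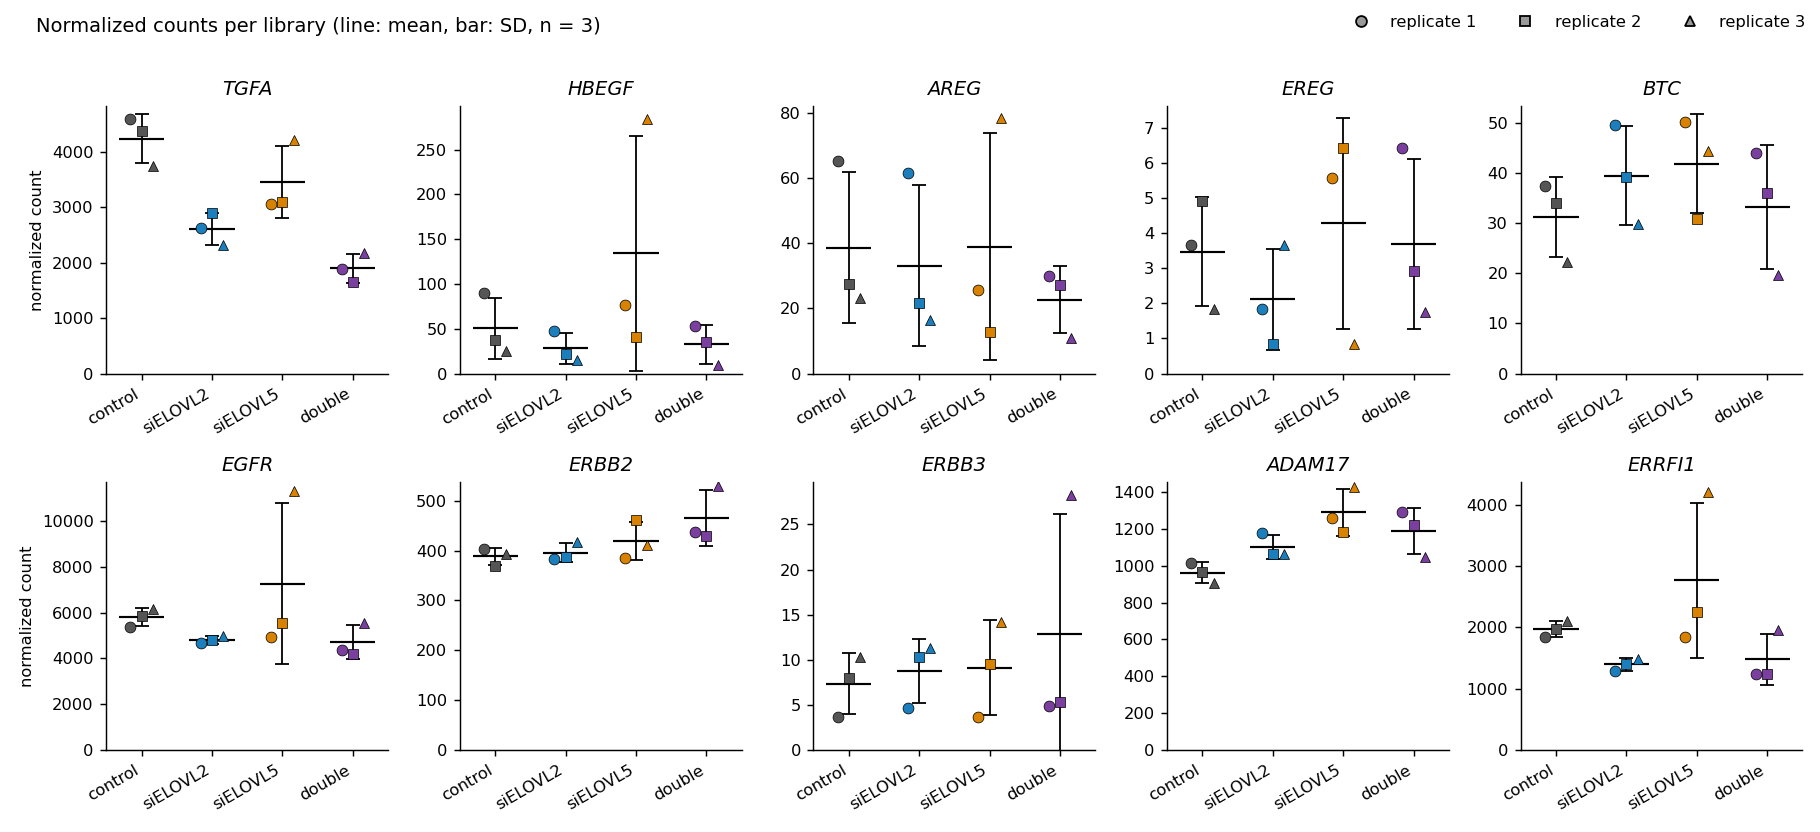
Normalized count (linear axes from 0) of each gene in each library, grouped by siRNA, with markers for replicates 1 to 3, a line for the mean and a bar for the SD (n = 3), of which that of ERBB3 in the double knockdown reaches below the axis. TGFA runs from 4583 in a control library down to 1647 in a double-knockdown library, and siELOVL5 replicate 3 sits on top for HBEGF, AREG, EGFR, ERRFI1 and ADAM17.

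The other ligands were scarce and spread widely within groups, and none was called in any comparison. HBEGF encodes a heparin-binding ligand of EGFR and ERBB4. HBEGF stood at 89.6, 37.3 and 25.5 normalized counts in control, at 48.1, 21.8 and 14.8 with siELOVL2, at 76.3, 41.3 and 285 with siELOVL5, and at 52.9, 35.4 and 9.17 in the double knockdown. Every pair of groups overlapped, and the highest value, 285, was siELOVL5 replicate 3. The siELOVL5 difference from control was 1.12 (interval -0.50 to 2.73, limma adjusted p = 0.660) and was 0.34 without that library.

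AREG encodes amphiregulin, a ligand of lower affinity for EGFR. AREG stood at 65.3, 27.6 and 23.3 in control, at 61.7, 21.6 and 16.3 with siELOVL2, at 25.8, 12.8 and 78.5 with siELOVL5, and at 30.1, 27.3 and 10.8 in the double knockdown. The groups overlapped, and the double-knockdown difference was -0.71 (interval -2.13 to 0.70, limma adjusted p = 0.622). A near-identical copy, AREGB, was listed at 1 in control replicate 1 and at 0 elsewhere, and how reads shared between the copies were counted is not known, so the AREG values are uncertain.

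BTC encodes betacellulin, which binds EGFR and ERBB4. BTC stood at 37.5, 34 and 22.3 in control, at 49.5, 39.3 and 29.8 with siELOVL2, at 50.3, 30.9 and 44.4 with siELOVL5, and at 44, 36 and 19.7 in the double knockdown, with overlap between all groups. EREG, which encodes epiregulin, rested on 1 to 8 reads a library: 3, 5 and 2 in control, 2, 1 and 4 with siELOVL2, 6, 8 and 1 with siELOVL5, and 5, 3 and 2 in the double knockdown. The EREG groups overlapped, and the double-knockdown difference from control was 0.010 (interval -1.28 to 1.30, limma adjusted p = 1). Replicate 1 was the highest of its group in 4 of 4 groups for BTC and in 3 of 4 for HBEGF and AREG.

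EGFR, the receptor for TGFA, was abundant in every library. EGFR stood at 5371, 5832 and 6161 normalized counts in control, at 4657, 4788 and 4981 with siELOVL2, at 4952, 5536 and 11318 with siELOVL5, and at 4366, 4182 and 5554 in the double knockdown. The siELOVL2 libraries lay below all controls, by -0.27 on average (interval -0.76 to 0.23, limma adjusted p = 0.672), and the double knockdown overlapped the controls at -0.31 (interval -0.81 to 0.19, limma adjusted p = 0.527). The siELOVL5 difference changed sign with 1 library, from 0.23 (limma adjusted p = 0.791) to -0.14 without siELOVL5 replicate 3. The difference between double knockdown and siELOVL5 likewise went from -0.54 to -0.17.

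ERBB2 encodes the partner receptor without a known ligand. ERBB2 stood at 403, 369 and 393 in control, at 383, 386 and 418 with siELOVL2, at 385, 462 and 411 with siELOVL5, and at 438, 429 and 529 in the double knockdown. The double-knockdown libraries lay above all control and all siELOVL2 libraries, and the difference from control, 0.26 (interval 0.04 to 0.47), did not pass adjustment (limma adjusted p = 0.180). ERBB3 encodes the receptor with little kinase activity, and it rested on few reads: 3, 8 and 11 in control, 5, 11 and 12 with siELOVL2, 4, 12 and 14 with siELOVL5, and 4, 5 and 29 in the double knockdown. Double-knockdown replicate 3, with 29 reads, was the highest of the 12 libraries, and all groups overlapped. Replicate 3 was the highest of its group in 4 of 4 groups for EGFR, ERBB3 and ERRFI1.

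ADAM17 encodes the protease that sheds TGFA. ADAM17 stood at 1018, 964 and 905 in control, at 1177, 1063 and 1067 with siELOVL2, at 1261, 1182 and 1429 with siELOVL5, and at 1293, 1223 and 1050 in the double knockdown. Every knockdown library lay above every control library. The differences were 0.20 with siELOVL2 (limma adjusted p = 0.395), 0.42 with siELOVL5 (interval 0.21 to 0.63, limma adjusted p = 0.148) and 0.30 in the double knockdown (interval 0.09 to 0.51, limma adjusted p = 0.0999), and none was called. The double-knockdown difference was called without siELOVL5 replicate 3 (limma adjusted p = 0.0399) or without double-knockdown replicate 3 (0.39, limma adjusted p = 0.0462). In GENCODE 29, 28.5% of the exon bases of ADAM17 overlap IAH1 on the opposite strand, and whether counting used strand is not given in the sources used here. IAH1 itself was at 337 to 376 in control and at 354 to 410 in the knockdown libraries.

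ERRFI1 encodes the inhibitor of the EGFR kinase, and its transcription is known to rise with EGFR signalling. ERRFI1 stood at 1849, 1980 and 2101 in control, at 1290, 1408 and 1487 with siELOVL2, at 1838, 2261 and 4217 with siELOVL5, and at 1236, 1245 and 1954 in the double knockdown. The siELOVL2 libraries lay below all control and all siELOVL5 libraries, while the double knockdown overlapped the controls through replicate 3. The difference from control was -0.50 with siELOVL2 (interval -1.04 to 0.03, limma adjusted p = 0.394), 0.40 with siELOVL5 (0.629) and -0.45 in the double knockdown (0.354). Without siELOVL5 replicate 3 the siELOVL5 difference was 0.046 (limma adjusted p = 0.988). Between siELOVL5 and siELOVL2 it was 0.90 (interval 0.37 to 1.43, limma adjusted p = 0.0705), and 0.55 (0.102) without siELOVL5 replicate 3. It was called in limma without siELOVL5 replicate 1 (1.15, adjusted p = 0.0380) or double-knockdown replicate 3 (0.90, 0.0480). It was also called with replicate number as a block (limma adjusted p = 0.00685). The double knockdown lay 0.85 below siELOVL5 (limma adjusted p = 0.0895), and 0.50 below it without siELOVL5 replicate 3 (0.132), while without siELOVL5 replicate 1 the gap was -1.10 and was called (0.0486). With the replicate block this gap was called too (limma adjusted p = 0.00956).

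**Figure D3:**
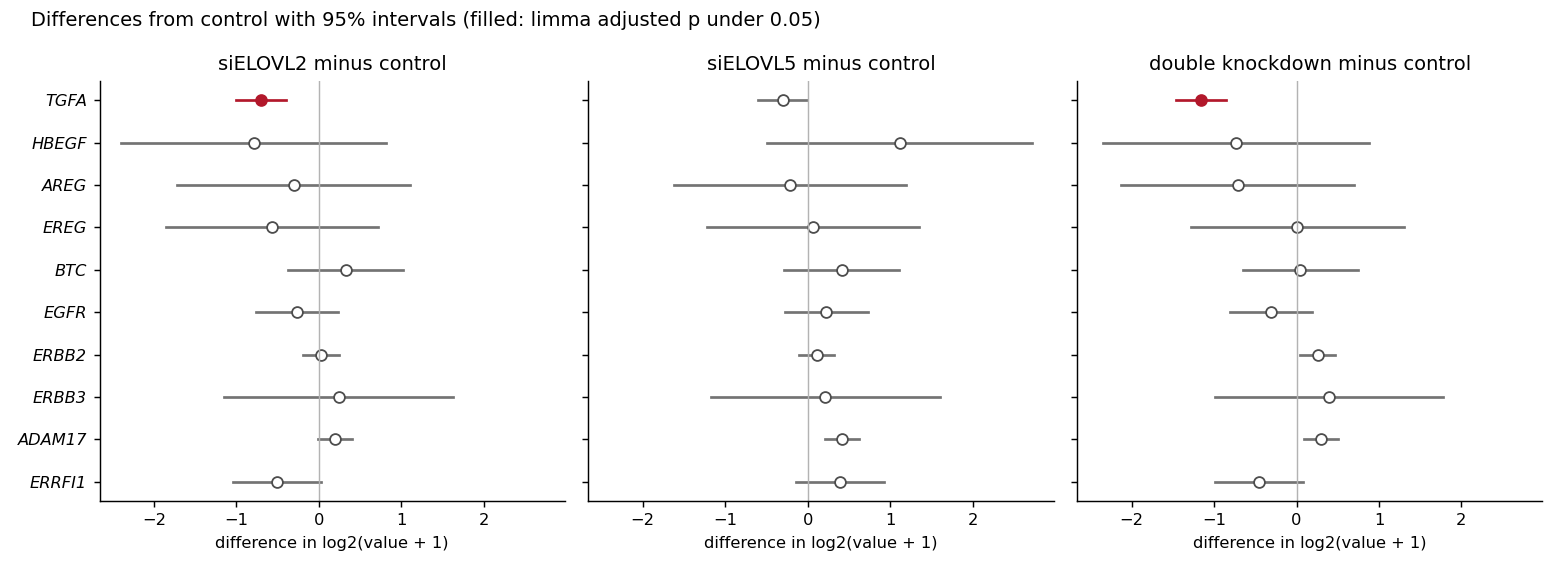
Difference from control in log2(value + 1), with 95% intervals from limma, for siELOVL2, siELOVL5 and the double knockdown; filled red points are called. TGFA is the one called gene, at -0.70 with siELOVL2 and -1.16 in the double knockdown, and the scarce ligands and ERBB3 have the widest intervals.

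Across the 12 libraries EGFR and ERRFI1 moved together, with a Pearson r of log2(value + 1) of 0.95, and 0.91 over the 11 libraries without siELOVL5 replicate 3. TGFA and EGFR had r = 0.63 (0.75 over the 11), and the scarce ligands HBEGF and AREG had 0.81 (0.72 over the 11). EGFR and ADAM17 went from 0.21 to -0.79 when that library was left out. These values describe libraries that share groups and normalization. For both EGFR and ERRFI1, replicate 3 was also the highest of its group in 4 of 4 groups, and their r includes that shared order.

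**Figure D4:**
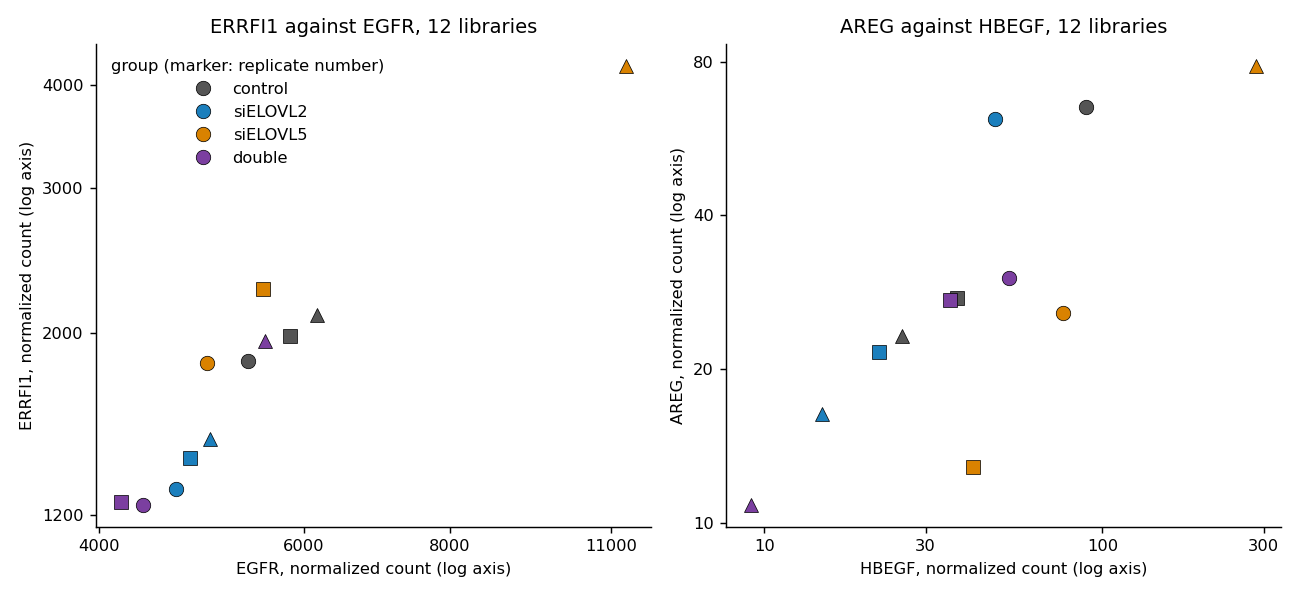
ERRFI1 against EGFR (left) and AREG against HBEGF (right), normalized counts on log axes, 1 point per library with colours for groups and markers for replicates. siELOVL5 replicate 3 lies at the upper right of both, at 11318 for EGFR and 285 for HBEGF.

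The rest of the pathway was followed in 93 further genes in 7 lists, of which 92 were found and 90 tested. The lists were chosen with earlier results of these data known, so their counts beside the shares of all tested genes are description and no test. In the double knockdown 4 were called higher and 6 lower against control, where 2.15% of all tested genes were called higher and 2.27% lower. The median over all 90 was -0.05, beside 0.02 over all tested genes. With siELOVL2, 0 were called higher and 1 lower (0.547% and 0.815% of all tested genes). With siELOVL5 none was called (0.0161% and 0.123%), nor in the double knockdown against siELOVL2 (0% and 0.059%). The double knockdown against siELOVL5 gave 1 higher and 3 lower (1.36% and 1.41%), and siELOVL5 against siELOVL2 gave 0 higher and 1 lower (1.46% and 1.56%). No remaining ligand gene (EGF, EPGN and NRG1 to NRG4, 0 of 6) was called in any comparison. Of those, NRG1, a ligand of ERBB3 and ERBB4, stood highest, at 566 to 1189 normalized counts, its peak again in siELOVL5 replicate 3. ERBB4, the remaining receptor gene, stood at 4.67 to 22.8 and was not called.

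Among genes of ligand shedding, the pseudoproteases RHBDF1 and RHBDF2 and their partner FRMD8 bring ADAM17 to the cell surface and hold it active there. These 3 of 8 tested were called higher in the double knockdown, beside 2.15% of all tested genes. RHBDF2 stood at 1170, 1182 and 1254 in control and at 1617, 1511 and 1563 in the double knockdown, 0.38 higher (limma adjusted p = 0.0307). FRMD8 was 0.39 higher (limma adjusted p = 0.0298) and RHBDF1 0.36 higher (0.0488). In the single knockdowns none of the 8 was called against control, and the genes differed. RHBDF2 stood at 1192 to 1471 with siELOVL2 and at 1416 to 1680 with siELOVL5. RHBDF1 stood at 296 to 324 in control, 332 to 356 with siELOVL2 and 366 to 414 with siELOVL5. FRMD8 stood at 230 to 266 in control, 314 to 338 with siELOVL2 and 258 to 289 with siELOVL5. In limma fits without 1 library, RHBDF1 was lost without any library but siELOVL5 replicate 3 (adjusted p 0.0509 to 0.175). RHBDF2 was lost without any control or double-knockdown library or siELOVL2 replicate 2 (adjusted p 0.0539 to 0.118), and FRMD8 without control or double-knockdown replicate 1 or 2 or siELOVL2 replicate 2 (0.0507 to 0.134).

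Of 21 adaptor and RAS-ERK relay genes, 1 was called higher and 3 lower in the double knockdown. Of all tested genes, 2.15% were called higher and 2.27% lower there. MAPK3, which encodes the kinase ERK1, stood at 489, 506 and 585 in control and at 696, 707 and 762 in the double knockdown, 0.46 higher (limma adjusted p = 0.0115). The docking protein genes GAB2 (-0.56, limma adjusted p = 0.0192) and GAB1 (-0.38, 0.0403) and the phospholipase gene PLCG1 (-0.35, 0.0403) fell. MAPK3 (0.43), GAB1 (-0.40) and GAB2 (-0.56) were also called against siELOVL5, with limma adjusted p of 0.0226, 0.0400 and 0.0268. Against control, limma lost MAPK3 without control replicate 1 or 2 (adjusted p 0.0645 to 0.0646) and GAB2 without control replicate 1 or 3 or double-knockdown replicate 2 or 3 (0.0501 to 0.0941). It lost GAB1 without any library but siELOVL2 replicate 1 and siELOVL5 replicates 1 and 3 (0.0505 to 0.160), and PLCG1 without any control or double-knockdown library or siELOVL2 replicate 2 or 3 (0.0513 to 0.136). Against siELOVL5, MAPK3 was lost without siELOVL5 replicate 1 or any double-knockdown library (0.0589 to 0.0741), GAB2 without siELOVL5 replicate 1 or 2 or any double-knockdown library (0.0539 to 0.0861) and GAB1 without 9 of the 12 libraries (0.0570 to 0.115), the other ones being control replicate 3, siELOVL2 replicate 1 and siELOVL5 replicate 3. With siELOVL2, 0 of the 21 were called against control. Yet all siELOVL2 libraries lay above all controls for MAPK3 and below them for GAB1, GAB2 and PLCG1. MAPK3 averaged 682 with siELOVL2, 721 in the double knockdown and 527 in control. In that order GAB1 averaged 221, 208 and 271, GAB2 89.2, 77.3 and 115, and PLCG1 820, 820 and 1042. These shifts are thus not shown to belong to the double knockdown alone. Of 8 tested genes of the PI3K-AKT arm, 0 were called in any comparison.

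In the receptor traffic list, CD44 was the called gene that fell in 2 comparisons with control. It encodes a surface glycoprotein that can present growth factors. CD44 stood at 21783, 18195 and 18195 in control and at 15036, 11742 and 10661 with siELOVL2. With siELOVL5 it stood at 17859, 15561 and 16654, and in the double knockdown at 11988, 10213 and 9892. All knockdown libraries lay below all controls, though the siELOVL5 difference was not called. CD44 fell by 0.86 in the double knockdown (limma adjusted p = 0.00285), a call that no single library ended. It fell by 0.65 with siELOVL2 (limma adjusted p = 0.0284), lost without any control library or siELOVL2 replicate 2 or 3 (0.0612 to 0.137). Against siELOVL5 the double knockdown was 0.64 lower (limma adjusted p = 0.0200), lost without siELOVL5 replicate 1 or double-knockdown replicate 2 or 3 (0.0647 to 0.0871). SOCS5, a suppressor of cytokine and EGFR signalling, was 0.44 lower with siELOVL5 than with siELOVL2 (limma adjusted p = 0.0424). That call was lost without 9 of 12 libraries (0.0564 to 0.148), all but control replicate 3, siELOVL5 replicate 3 and double-knockdown replicate 3.

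Among 25 ERK feedback and target genes, 2 fell in the double knockdown and 19 of 25 differences lay below 0, with a median of -0.26 beside 0.02 over all tested genes, of which 2.27% were called lower. With siELOVL5 0 were called and 18 of 25 lay above 0, with a median of 0.17, and without siELOVL5 replicate 3 it was 10 of 25, with a median of -0.053. PHLDA1, a gene induced by ERK signalling, stood at 4026, 3053 and 2670 in control and at 2138, 1623 and 1100 in the double knockdown, a fall of 1.03 (limma adjusted p = 0.0359). CCND1, the cyclin D1 gene, fell by 0.44 (limma adjusted p = 0.0373). It stood at 2556 to 2659 in control and at 1620 to 2257 in the double knockdown. With siELOVL5 alone it stood at 1745 to 2086, below all controls but not called, and with siELOVL2 at 2441 to 2655. PHLDA1 was lost without any control library, siELOVL2 replicate 2 or double-knockdown replicate 2 or 3 (limma adjusted p 0.0504 to 0.154), and CCND1 without any library but siELOVL5 replicates 1 and 3 and double-knockdown replicate 3 (0.0522 to 0.128). Feedback genes were not called and went both ways. DUSP6 stood at 37.1 to 54.3 in control and 14.7 to 63.2 in the double knockdown, and SPRY4 at 88.8 to 115 and 74.5 to 97.8. DUSP5, at 496 to 554 in control and 907 to 949 in the double knockdown, and SPRY1, at 17.2 to 28.0 and 28.3 to 45.7, lay above control without overlap (0.83 and 0.72, limma adjusted p = 0.116 and 0.161). Single knockdowns also held high values of both, not called. DUSP5 stood at 764 to 879 with siELOVL2 and 640 to 1779 with siELOVL5, above all controls. SPRY1 stood at 38.6 to 61.5 with siELOVL2, above all controls, and at 21.8 to 30.8 with siELOVL5, which overlapped them.

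**Figure D5:**
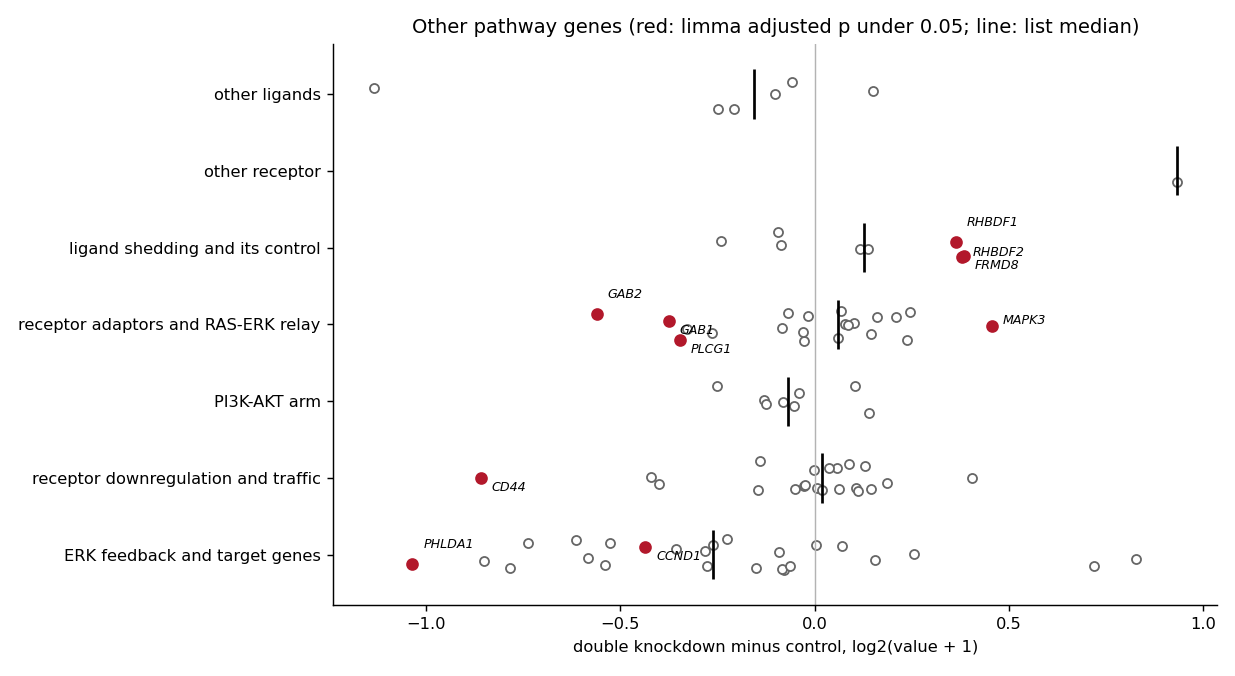
Difference between double knockdown and control in log2(value + 1) for each of the 90 tested pathway genes, 1 row per list, with a line at the list median and called genes in red. RHBDF1, RHBDF2, FRMD8 and MAPK3 lie to the right and CD44 (-0.86) and PHLDA1 (-1.03) farthest to the left of the called genes.

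TGFA was set beside 14 genes of the hypoxia-inducible factor axis, of which 4 were called lower in the double knockdown and 0 higher, beside 2.27% and 2.15% of all tested genes. This list, too, was chosen with earlier results of these data known. EPAS1 itself stood at 1486, 1508 and 1563 in control and at 1363, 1385 and 1724 in the double knockdown, and it was not called. EGLN1, which encodes a prolyl hydroxylase that marks these factors for VHL, stood at 1223 to 1290 in control, 739 to 878 with siELOVL2, 1248 to 1336 with siELOVL5 and 726 to 785 in the double knockdown. It fell by 0.62 with siELOVL2 (limma adjusted p = 0.00149) and by 0.74 in the double knockdown (1.96e-04). EGLN1 was also 0.78 lower in the double knockdown than with siELOVL5 (limma adjusted p = 2.24e-04) and 0.66 higher with siELOVL5 than with siELOVL2 (5.88e-04). HIF1A fell by 0.39 in the double knockdown (limma adjusted p = 0.00772) and LDHA, a lactate dehydrogenase gene, by 0.47 (0.00331), with CCND1 as the fourth. With siELOVL5 alone HIF1A stood at 1671 to 1774, below all controls (1980 to 2119) but not called. LDHA also fell by 0.35 with siELOVL2 (limma adjusted p = 0.0312), a call lost without any control or siELOVL2 library or double-knockdown replicate 2 (0.0543 to 0.165). Against siELOVL5 it was 0.40 lower in the double knockdown (limma adjusted p = 0.0136), lost without double-knockdown replicate 1 or 2 (0.0645 to 0.0714). VEGFA, another target of EPAS1, was at 3777 to 4863 in control and at 2702 to 4844 in the double knockdown, and was not called.

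The genes whose levels over the 12 libraries were most like TGFA, among 9322 compared, were ZNF24 (Pearson r = 0.97), FAM63B (0.95), PSD3 (0.94), NDFIP2 (0.94) and TRPC1 (0.93). ZNF24, a zinc finger gene, stood at 791, 809 and 715 in control, at 575, 584 and 603 with siELOVL2, at 687, 649 and 728 with siELOVL5, and at 496, 444 and 502 in the double knockdown. Within groups, as deviations from the group means, the most like were CCZ1 (0.90), ARHGAP27 (0.89), GMEB2 (0.89), SMG9 (0.89) and C7orf26 (0.86), none of which is in the first list.

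Words of 7 bases that an earlier scan of these data had found in falling transcripts were searched in 3′ UTRs of GENCODE 29 (GRCh38, transcript strand). The words of the siELOVL2 scan were ACGAATA, with the related CACGATA and, overlapping it, ACGATAA. At least 1 of them is carried by 4.24% of 14116 scanned genes and, among the 10 genes here, by ERRFI1 and not by TGFA. The word of the siELOVL5 scan (GAGAGGA) is carried by 18.5% and by TGFA, EGFR and ERRFI1. The sites of TGFA (chr2:70449906-70449928, minus strand, in 1 of 5 transcripts) and ERRFI1 (chr1:8012483-8012505, minus strand, in 1 of 4) are printed with the word in capitals.
TGFA: gttggggaGAGAGGAagagtgtg
ERRFI1: aaaataaaACGATAAtagaacta
The words were chosen on these libraries, the siRNA sequences are not among the sources used here, and a part of these sites in the values was not tested.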

How the data were processed

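RNA from 12 A498 libraries (4 siRNA groups of 3 biological replicates) was read in pairs of 36 bases on a NextSeq 500, per the labels. The authors deposited 1 table of normalized signal values for 57773 genes. The sources used here name no aligner, counting tool, strand setting or genome build. Every deposited column holds the same sorted values, all multiples of 1 over 12, the mark of quantile-normalized read counts, so values are relative within a library. Each column matched 1 sample (0 columns without a sample).

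Reads up to 60 were recovered from the table order of tied values (tested on simulated data), and depth from the ratio of reads to value between 20 and 60 reads.

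The test was limma 3.58.1 (R 4.3.3; tested on simulated data) on log2(value + 1), which understates changes of low genes. Genes with at least 1 in at least 3 of 12 libraries entered, 18648 in all. The fit used 4 group means (8 residual degrees of freedom) and an intensity trend, with two-sided tests and Benjamini-Hochberg adjustment within each of 7 comparisons. The p-values measure the spread between these replicate libraries.

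The members and gene lists were chosen with earlier results of these data known. All 10 members are described; of each list, up to 4 called genes per comparison with the smallest adjusted p are named, and the 5 genes most like TGFA by each of 2 measures had a mean no lower than the median tested gene. Genes named in addition (AREGB, IAH1, NDRG1, EPAS1, VEGFA, NRG1, CA9, EGLN3, PGK1, DUSP5, DUSP6, SPRY1, SPRY4 and those of the closing observations) were chosen after their values were seen. NRDC was matched as NRD1 through a RefSeq synonym; PIK3R2, split into 2 suffixed names, was not used. Levels per kb use merged exons of GENCODE 29. Promoters are RefSeq's, on GRCh38.p14, with entries for 9 of the 10 genes. No coordinates come from the deposited table. Alternatives were other pseudocounts, filters, scaling, library weights, no trend, separate fits, a replicate block and leaving out each library.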

Additional observations from a re-analysis of the deposited data

How the results depend on the processing

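Of 51 single-gene differences under 1120 alternative settings in all, 943 kept direction and side of the threshold, 26 moved past it, 146 fell short of it and 5 changed sign. The sign changes were in EGFR with siELOVL5 against control (-0.048 with library weights, -0.14 to 0.45 over leaving out 1 library, lowest without siELOVL5 replicate 3, and -0.076 without that library and with the replicate block), HBEGF with siELOVL5 (-0.14) and TGFA for the interaction (0.017), the last 2 also without that library and with the block, a setting chosen after seeing the data. The cause was not tested.

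The number of members called moved as follows, beside 1, 0, 1, 0, 1 and 0 in the order siELOVL2, siELOVL5 and double knockdown against control, double knockdown against siELOVL2 and against siELOVL5, and siELOVL5 against siELOVL2. With library weights it was 2, 1, 3, 1, 2 and 1. Without an intensity trend it was 0 for siELOVL2 against control (TGFA, limma adjusted p = 0.102). In fits of the 2 groups alone it was 2 for siELOVL2 against control (ERRFI1 joined) and 0 for double knockdown against siELOVL5 (TGFA, limma adjusted p = 0.141). Without siELOVL5 replicate 3 and with the block, it was 4, 1, 5, 0, 3 and 1. Leaving out 1 library gave 0 to 1, 0 to 0, 1 to 2, 0 to 0, 1 to 2 and 0 to 1.

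Replicate numbers were not taken to pair the samples in the main fit. Deviations from group means correlated by 0.272 to 0.490 between replicates 1, 0.164 to 0.557 between replicates 3 and 0.0172 to 0.112 between replicates 2. Deviations cancel within a group, so the low values of replicates 2 cannot decide whether replicate numbers pair the samples. With the replicate block, 2 members were called for double knockdown against siELOVL5 and 1 for siELOVL5 against siELOVL2, ERRFI1 joining in each (limma adjusted p = 0.00956 and 0.00685), and the other counts of members were as without it. With the block, all genes called numbered 861, 99, 1866, 12, 1368 and 1317, beside 254, 26, 825, 11, 516 and 562 without it, and pathway genes 6, 0, 14, 0, 8 and 8, beside 1, 0, 10, 0, 4 and 1. Over leaving out 1 library, all genes called ran from 63 to 829, 9 to 39, 325 to 1775, 2 to 16, 154 to 791 and 165 to 707. The other planned settings gave 101 to 1569, 1 to 145, 413 to 2241, 1 to 27, 21 to 1368 and 49 to 1643, and 0 to 9 for the interaction. Pathway genes called ran from 0 to 8, 0 to 1, 1 to 14, 0 to 1, 0 to 8 and 0 to 12 over all planned settings. EREG and ERBB3 rest on the fewest reads, with 1 to 8 and 3 to 29 reads a library.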

Other observations

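The library siELOVL5 replicate 3, which held the highest EGFR, ERRFI1, HBEGF and AREG, also held the highest levels of several growth factor response genes, named here after their values were seen. The immediate early gene EGR1 stood at 185 normalized counts there and at 6.33 to 23.4 in the other 11 libraries. MYC stood at 2300 there and at 845 to 1017 elsewhere, LIF, a cytokine gene, at 3149 against 1170 to 1470, and the ERK phosphatase gene DUSP5 at 1779 against 496 to 949. FOS was at 57.9 there and at 8.83 to 34.8 elsewhere. Of the 25 ERK feedback and target genes 13 were at their highest of 12 in that library, and 3 at their lowest: ETV1 (131 against 236 to 347), DUSP7 (108 against 110 to 174) and EPHA4 (41.3 against 56.1 to 95.8). The share of all tested genes at either extreme there was not counted, so these counts are not shown to be particular to this list. TGFA (4207, rank 3 of 12), PHLDA1 (2401) and CD44 (16654) were within the range of the other libraries there.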
